A study of Musca domestica with 10 samples.

Results

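The transcripts of house fly embryos (Musca domestica) at dorsal closure were compared with those at the syncytial blastoderm, the last and the first of 5 sampled stages. The comparison was set by the stage labels: 2 dorsal closure libraries against 2 syncytial blastoderm libraries, 4 of the 10 libraries of the series. Each library was made from 100 whole, untreated embryos, pooled and frozen together, so differences between individual embryos are averaged. All groups are of the same species and differ by stage alone, per the labels, and no strain, sex or age in hours is given. The other stages, cellular blastoderm, gastrula and germ band extension, enter below where they show the course between the ends.

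A fly embryo starts with RNA that the mother loaded into the egg. In Drosophila, where this is best studied, much of that RNA is degraded around the blastoderm stages while the embryo's own genome is switched on, a passage called the maternal-to-zygotic transition. At the syncytial blastoderm the nuclei still share a common cytoplasm, whereas at dorsal closure the epidermis draws together over the back and most tissues are forming. Read counts do not tell RNA laid down by the mother from RNA made by the embryo, so a transcript present at both stages may have persisted or been made again. The amount of RNA per embryo was not measured either: all values are relative to the other transcripts of the same library, and in whole embryos fewer cells of a type cannot be told apart from less RNA per cell.

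Each library lists counts for 15803 genes. Reads assigned to genes numbered 16288442 and 42479342 in syncytial blastoderm replicates 1 and 2, and 81097276 and 44432718 in dorsal closure replicates 1 and 2. Reads outside annotated genes made up 23.5% and 17.5% of the syncytial blastoderm reads and 17.4% and 25% of the dorsal closure reads, so this share did not separate the stages. Levels are in CPM, the reads of a gene brought to a fixed library size after scaling the libraries to each other, and 3 counts correspond to 0.14 CPM in the shallowest of the 4 libraries and to 0.036 to 0.072 CPM in the others. Read shares are percentages of all gene reads of a library and need no scaling. A long transcript yields more reads than a short one, so a share of reads is not a share of molecules. The files pair no identifier with a gene name, so stage markers could not be looked up, and genes are described by how their levels behaved.

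About the same portion of the pool was common to both stages as was exchanged. The read share in common between 2 libraries, the sum over genes of the smaller of the 2 shares, was 51.6% for the replicate 1 libraries of the 2 stages and 55.3% for the replicate 2 libraries. The crossed pairs stood at 46.7% (syncytial blastoderm replicate 1 with dorsal closure replicate 2) and 52% (syncytial blastoderm replicate 2 with dorsal closure replicate 1). Libraries of the same stage had more in common, 76.3% at syncytial blastoderm and 65.4% at dorsal closure. All 4 pairs across the stages lay below both pairs within a stage, but the 34.6% by which the dorsal closure libraries differed from each other is a large part of the 44.7% to 53.3% by which the stages differed.

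**Figure D1:**
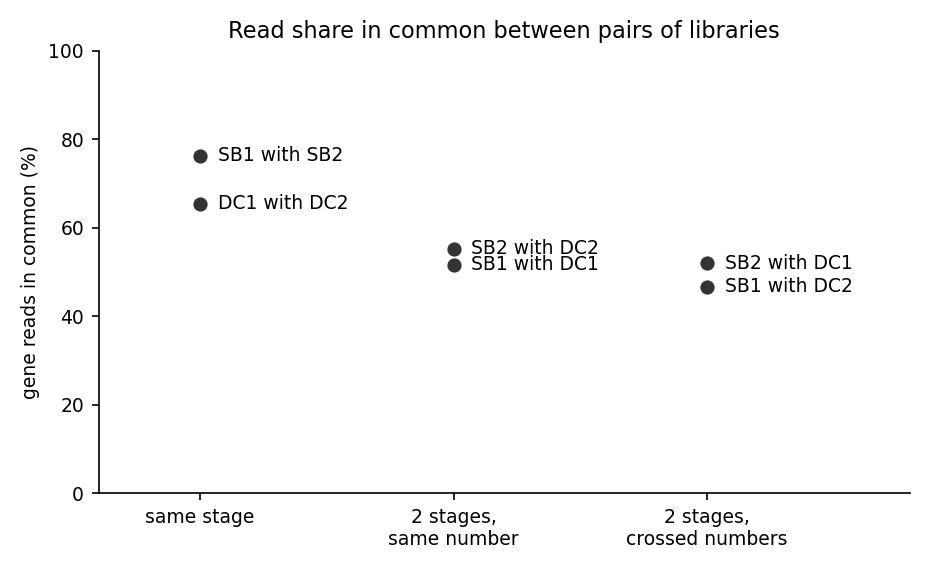
Gene reads in common (%) for each pair of the 4 libraries, grouped on the horizontal axis by whether the pair is of the same stage (SB, syncytial blastoderm, or DC, dorsal closure), of both stages with the same replicate number, or of both stages with crossed numbers. Each point is 1 pair; the pairs across stages lie between 46.7% and 55.3%, below the same-stage pairs at 65.4% and 76.3%.

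The most abundant transcripts overlapped between same-numbered libraries of the 2 stages about as much as between replicates of a stage. Of the 100 genes with most reads in a library, 72 were in common between the replicate 1 libraries of the 2 stages and 74 between the replicate 2 libraries. Within a stage the overlap was 70 at syncytial blastoderm and 75 at dorsal closure, and both crossed pairs shared 63. The top 100 of syncytial blastoderm replicate 1, measured in the replicate 2 libraries that did not choose them, took 25.3% of the syncytial blastoderm reads and 35.1% of the dorsal closure reads. Those of syncytial blastoderm replicate 2 took 22.5% and 25.2% in the replicate 1 libraries. In neither case was any of the 100 below 1 CPM at dorsal closure. The top 100 of dorsal closure replicate 1 took 42.1% of the reads in dorsal closure replicate 2 and already 21.4% in syncytial blastoderm replicate 2, where 5 of them were below 1 CPM. For the top 100 of dorsal closure replicate 2 the shares were 29% and 16.2% in the replicate 1 libraries, with 8 below 1 CPM.

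The bulk of the reads was held by fewer genes at dorsal closure, although more genes were present. Genes at 1 CPM or more numbered 7110 and 7130 in syncytial blastoderm replicates 1 and 2 and 9728 and 9249 in those of dorsal closure. A portion of 50% of the gene reads was held by 614 and 493 genes at syncytial blastoderm and by 257 and 128 genes at dorsal closure. The groups did not overlap, but replicate 2 held fewer genes than replicate 1 at both stages. The 90% mark was reached by 3797 and 3514 genes at syncytial blastoderm and by 3167 and 2487 at dorsal closure. A single gene took 4.2% of the reads of syncytial blastoderm replicate 1 and is described below with the other identifiers.

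Of the 11286 genes with enough counts to be tested, 2897 (25.7%) rose and 1722 (15.3%) fell between the stages, so 40.9% differed in either direction. The test was edgeR's quasi-likelihood test on all 10 libraries, with stage alone in the model and the replicate number left out. Calls were made where the Benjamini-Hochberg adjusted p was below 0.05. With the replicate number as a block, 3612 genes (32%) rose and 3103 (27.5%) fell, and these included 2894 of the 2897 rises and all 1722 falls. Most rises, 2038 or 70.3%, were of genes gained from below 1 CPM, which made up 2234 of the 11286 tested genes. Most falls, 1512 or 87.8%, were of genes that stayed above 1 CPM. Of genes above 1 CPM in both syncytial blastoderm libraries, 6410 stayed above it in both dorsal closure libraries and 163 in neither. Another 242 and 87 stayed above it in replicate 1 only and replicate 2 only. The large part of falls in genes that stayed is thus close to what their number alone gives. Genes that rose took 3.96% and 4.44% of the syncytial blastoderm reads and 35.5% and 28% of the dorsal closure reads. For genes that fell these shares were 25.4% and 25.1% at the first stage and 3.22% and 2.95% at the last. Neither the shares of the rises nor those of the falls overlapped between the stages, as the calls themselves require.

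The numbers of calls leaned on single libraries and on the scaling. Rises numbered 1186 and 1095 without syncytial blastoderm replicates 1 and 2 and 1902 without dorsal closure replicate 1. Falls numbered 877 and 763 without syncytial blastoderm replicates 1 and 2, and 947 without dorsal closure replicate 2. DESeq2's size factors moved the median log2 fold change of all tested genes from 0.15 to 0.77, and rises from 62.7% to 75.9% of the calls, with 3328 higher and 1059 lower. The upper quartile moved them to 73% and a fit of the 4 libraries alone to 78.4%, with 3303 higher and 909 lower.

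**Figure D2:**
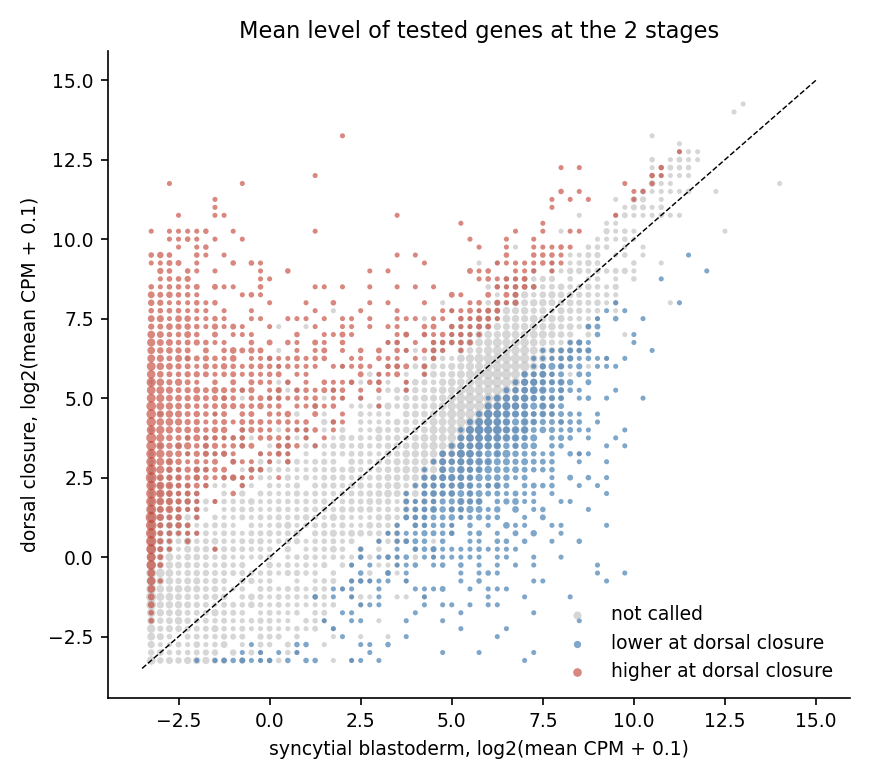
Mean level of tested genes at syncytial blastoderm (horizontal) against dorsal closure (vertical), both as log2(mean CPM + 0.1), with the line of equal level dashed. Positions are rounded to a grid and a point grows with the number of genes on it; colours mark the 2897 genes called higher, the 1722 called lower and the 6667 not called. Rises lie mostly at the left edge, where genes start near 0, and falls mostly in the middle of the range of starting levels.

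To follow the replacement, genes were sorted by a floor of 1 CPM. A gene counted as present where both libraries of a stage reached the floor, as absent where neither did, and as mixed where the libraries of a stage disagreed. By this rule 6410 genes were kept, 2234 were gained, 163 were lost, 5392 were absent at both stages and 1604 were mixed. Since the levels themselves define these classes, their counts and calls are given as description.

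Lost genes were few and carried little of the starting pool. The 163 lost genes took 0.851% and 0.751% of the syncytial blastoderm reads and 0.00662% and 0.00503% of the dorsal closure reads. Their median level was 7.66 and 5.15 CPM at syncytial blastoderm and 0.38 and 0.266 CPM at dorsal closure. Only 9 of the 163 stood at 100 CPM or more in both syncytial blastoderm libraries, yet these took 0.453% and 0.452% of the reads, more than the remaining lost genes together. Another 44 stood between 10 and 100 CPM by the lower library. Loss was rarely complete at this depth: 6 of the 163 had no read in either dorsal closure library. Of the lost genes 106 fell in edgeR's test and 57 were not called, against 15.3% of all tested genes called lower. With the replicate block 130 fell, against 27.5% of all tested genes. The number rested on both dorsal closure libraries, with 405 lost genes without replicate 1 and 250 without replicate 2.

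Gained genes were many and brought a sizeable part of the new pool. The 2234 gained genes took 0.0272% and 0.029% of the syncytial blastoderm reads and 17.2% and 11% of the dorsal closure reads, a mean of 14.1% ± 4.36 (SD, n = 2). The dorsal closure libraries stood far above both syncytial blastoderm libraries but also apart from each other. The median level was 0 and 0.0203 CPM at syncytial blastoderm and 15.9 and 10 CPM at dorsal closure. For 682 of the 2234 (30.5%) neither syncytial blastoderm library held a read. Both had fewer gene reads than either dorsal closure library, so a gene was more easily left without a read there. In edgeR's test 2038 of the gained genes rose and 196 were not called, against 25.7% of all tested genes called higher. With the replicate block 2157 rose, against 32% of all tested genes.

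Within the gained genes a small upper group held most of the reads. By the lower of the dorsal closure libraries, 1274 genes stood between 1 and 10 CPM and together took 1.48% and 0.964% of the dorsal closure reads. The 800 genes between 10 and 100 CPM took 6.25% and 3.89%, and the 151 between 100 and 1000 CPM took 8.08% and 4.67%. The 9 genes at 1000 CPM or more took 1.36% and 1.48%. Apart from these 9, each band took a larger share in replicate 1 than in replicate 2. Of the gained genes 1379 (61.7%) were higher in dorsal closure replicate 1, with a median log2 ratio of replicate 1 over replicate 2 of 0.52. For kept genes the same ratio was 0.18, and 55.6% of them were higher in replicate 1. The part of this difference in the size of the gained share was not tested.

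The kept genes remained the bulk of the pool at both ends. The 6410 kept genes took 97.7% and 98.1% of the syncytial blastoderm reads and 80.2% and 85.6% of the dorsal closure reads. Among them 1512 fell, 355 rose and 4543 were not called in edgeR's test. With the replicate block 2734 fell and 677 rose. The 1512 falls had a median of -2.54 on the same scale (log2 fold change) and went from 23.8% and 23.7% of the reads to 3.2% and 2.94%. The 355 rises had a median of 2.81 on the log2 scale and went from 3.92% and 4.4% to 16.3% and 14%. The share of the falls differed little between replicates, while that of the rises was higher in dorsal closure replicate 1.

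Between the replicate 1 libraries 48.4 points of read share moved from genes whose share was lower at dorsal closure to genes whose share was higher, and between the replicate 2 libraries 44.7 points moved. Measured the same way, the libraries of the same stage differed by 23.7 points at syncytial blastoderm and 34.6 points at dorsal closure. Kept genes supplied 95.7% and 96.2% of the points that left, having held 97.7% and 98.1% of the starting reads. Lost genes supplied 1.74% and 1.67% and had held 0.851% and 0.751%. Of the points that came, kept genes received 59.7% and 68.1% and gained genes 35.4% and 24.6%. Kept genes called higher received 12.4 and 9.62 points, against 17.1 and 11 points for gained genes. Kept genes without a call received 16.5 and 20.8 points and gave up 25.8 and 22.3. The incoming points fell on fewer genes: 149 and 68 genes received 50% of them, whereas 525 and 592 genes supplied 50% of those that left.

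Not all kept genes without a call were steady. With the replicate block 322 of the 4543 rose and 1222 fell. In plain CPM ratios within the same-numbered pairs, 1579 of the 4543 (34.8%) stayed within 2-fold in both pairs, and 929 (20.4%) differed by 2-fold or more in the same direction in both. The sign differed between the pairs, by any amount, for 1193 (26.3%), of which 619 were among the genes within 2-fold and 574 were not. Kept genes lower by 4-fold or more in both pairs numbered 979 and took 16.7% and 16.6% of the syncytial blastoderm reads against 1.38% and 1.41% at dorsal closure. Those higher by 4-fold or more in both pairs numbered 199 and went from 0.711% and 0.8% to 6.88% and 6.11%. The median log2 fold change of kept genes was -0.77 with the main scaling, against 0.15 for all tested genes. It was -0.15 against 0.77 with DESeq2's size factors, and -1.12 against -0.19 with total counts. Among kept genes, 630 then rose and 889 fell with DESeq2's size factors, and 265 rose and 1956 fell with total counts.

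**Figure D3:**
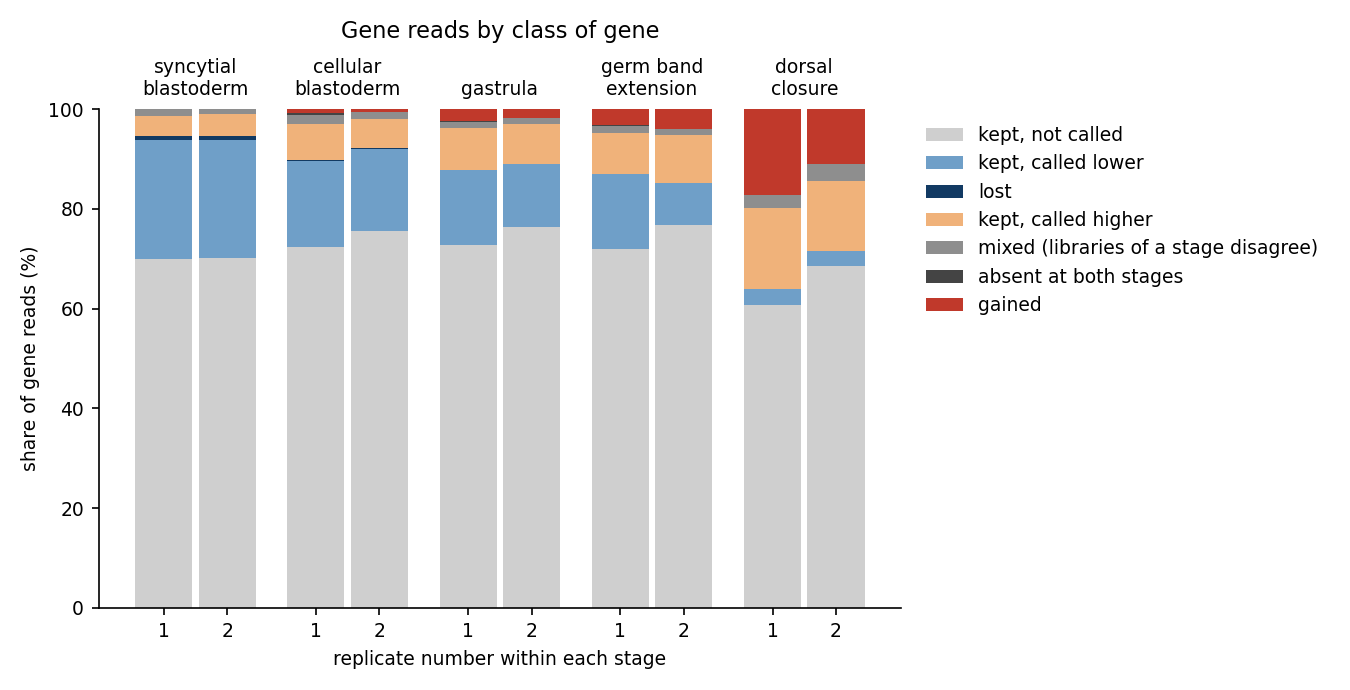
Share of gene reads (%) taken by each class of gene in each of the 10 libraries, ordered by stage and, within a stage, by replicate number; each bar is 1 library and its segments add to 100%. Gained genes take 17.2% and 11% at dorsal closure and 0.0272% and 0.029% at syncytial blastoderm, kept genes called lower shrink from 23.8% and 23.7% to 3.2% and 2.94%, and the sliver of lost genes is 0.851% and 0.751% at the start.

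Where a gene started in the pool went with how it ended. To keep the choice apart from the measurement, genes were sorted by their level in 1 syncytial blastoderm replicate and followed in the libraries of the other replicate number. Genes of the middle range took a smaller share at dorsal closure. Those between 10 and 100 CPM in replicate 1 went from 29.9% of the reads to 18.3% in the replicate 2 libraries, and those chosen in replicate 2 went from 29.9% to 20.6% in replicate 1. Those between 100 and 1000 CPM went from 45.4% to 32.1% and from 46.5% to 32.6%. Of the 1572 and 1837 genes of this last range, 37.4% and 28.6% were lower by 4-fold or more, and 1.53% and 3.05% were higher by as much.

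The top of the range and the levels below 10 CPM took a larger share. The 91 tested genes at 1000 CPM or more in syncytial blastoderm replicate 1 went from 24% to 33.4% of the reads in replicate 2. Their median log2 ratio of dorsal closure over syncytial blastoderm, with 0.5 CPM added to each level, was 0.89. The 100 chosen in replicate 2 went from 22.5% to 25.2% in replicate 1, with a median log2 ratio of 0.91. Genes below 1 CPM went from 0.155% to 14.1% and from 0.132% to 17.8%. Those from 1 to 10 CPM went from 0.632% to 2.07% and from 1.03% to 3.73%. Only tested genes are counted, and a gene below 1 CPM at the start may have passed the count filter through a later stage alone. Such a gene also had little room to fall. The rise of the range below 1 CPM, and the sign of its median, were therefore largely set in advance. The sign of the median log2 ratio in the ranges below 1, from 10 to 100, from 100 to 1000, and from 1000 CPM was the same with TMM, DESeq2's size factors and total counts. That of the range from 1 to 10 CPM changed with the scaling and the pair (-0.11 and 0.15 with TMM, 0.45 and 0.5 with DESeq2's size factors, -0.35 and -0.13 with total counts).

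**Figure D4:**
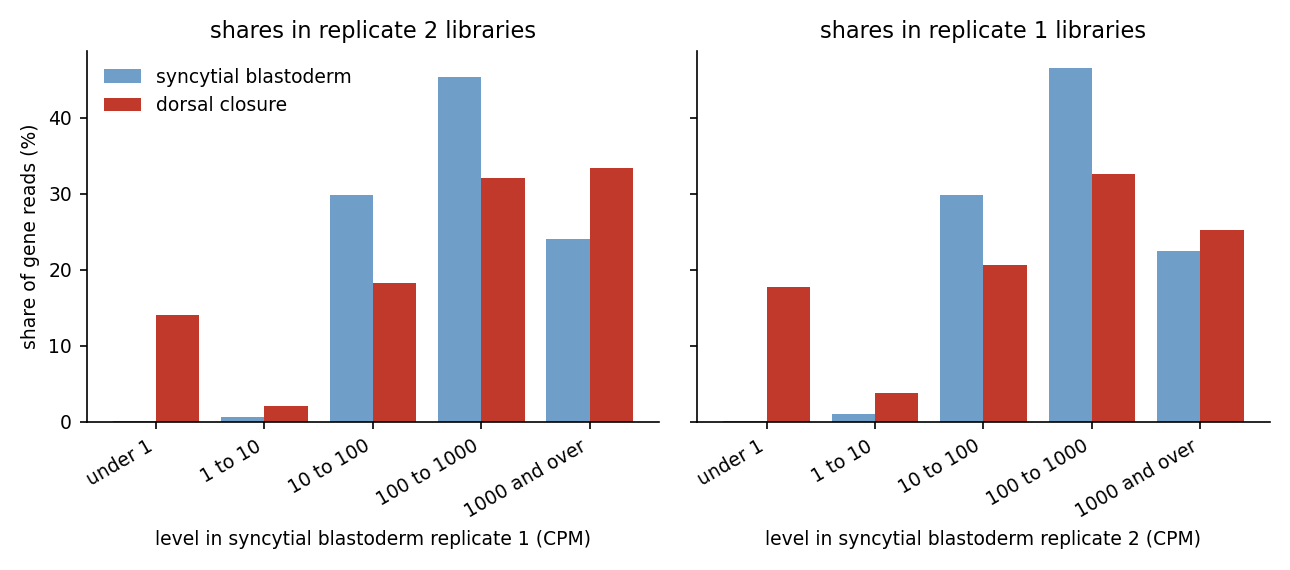
Share of gene reads (%) at syncytial blastoderm (blue) and dorsal closure (red) for tested genes sorted by their level in syncytial blastoderm (CPM, horizontal), with the level taken from 1 replicate and the shares from the libraries of the other; each bar is 1 library. In both panels the ranges from 10 to 1000 CPM are lower at dorsal closure (18.3% and 32.1% on the left, 20.6% and 32.6% on the right), and the ranges below 1, from 1 to 10 and from 1000 CPM are higher.

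The classes were set on the first and last stage alone, and the middle stages show the shares in between. Because the end stages chose the classes and the calls, the steps next to them are favoured by that choice. Genes below the floor in all 4 end-stage libraries are not among the gained, lost or kept genes, even if high in between. The middle stages did not enter the sorting, so gained, lost and kept genes may include some that peaked there. In points of read share, the lost genes fell most at the first step. From 0.851% and 0.751% they stood at 0.208% and 0.226% at cellular blastoderm, 0.0789% and 0.0579% at gastrula, and 0.0803% and 0.0256% at germ band extension. At dorsal closure 0.00662% and 0.00503% were left, so as a ratio the last step was the largest fall in both replicates. In points, the share of the gained genes grew most at the end, next to the stage that chose them. They took 0.873% and 0.505% of the reads at cellular blastoderm, 2.4% and 1.72% at gastrula, 3.18% and 3.93% at germ band extension and 17.2% and 11% at dorsal closure. The last step was thus the largest in points in both replicates. As a ratio the first step was the largest in both, from 0.0272% and 0.029% at syncytial blastoderm.

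The kept genes that fell did so in steps, except between gastrula and germ band extension in replicate 1. Their share of 23.8% and 23.7% was 17.2% and 16.3% at cellular blastoderm, 15% and 12.6% at gastrula, 15.1% and 8.3% at germ band extension, and 3.2% and 2.94% at dorsal closure. The libraries of germ band extension were the furthest apart. They had 67.9% of reads in common, against 92% between the replicate 1 libraries of gastrula and germ band extension. The kept genes that rose stood at 7.14% and 5.94%, 8.28% and 8.01%, and 8.17% and 9.59% at the 3 middle stages, between their values at the ends. The read share in common with the syncytial blastoderm library of the same number was 70.2% and 79.8% at cellular blastoderm, 64.8% and 69.7% at gastrula, 65.7% and 65.1% at germ band extension and 51.6% and 55.3% at dorsal closure.

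Identifiers stand for each side of the exchange. MDOA000382 had the largest gain in read share among genes that rose, and its level was 0.225 and 7.87 CPM at syncytial blastoderm and 2663 and 17847 CPM at dorsal closure. Its libraries differed widely within both stages, and since only 1 of the starting libraries was below the floor it is among the mixed genes. It rose by 11.29 ± 2.16 on the log2 scale (SE; adjusted p in edgeR 0.0051). The difference was 9.46 without dorsal closure replicate 2 and 15.49 without syncytial blastoderm replicate 2. On the way it passed 122 and 79 CPM at cellular blastoderm, then 308 and 716 at gastrula, then 448 and 3286 at germ band extension. In dorsal closure replicate 2 it took 1.7% of all gene reads, against 0.28% in replicate 1.

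MDOA008114 had the highest level among gained genes. It had 0 reads in syncytial blastoderm replicate 1 and 0.507 CPM (25 counts) in replicate 2, against 2184 and 2313 CPM at dorsal closure, where the libraries agreed closely. Against a floor of 3 counts in that library it was at least 16163-fold higher in replicate 1, and it was 4564-fold higher in replicate 2. It stood at or below 0.793 CPM through gastrula and at 0.516 and 46.4 CPM at germ band extension. The edgeR adjusted p was 0.016, with 0.09 and 0.068 without syncytial blastoderm replicates 1 and 2, and from 1.6e-08 to 0.09 over all alternatives.

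MDOA014323 had the largest loss of read share among genes that fell. It stood at 1822 and 6647 CPM at syncytial blastoderm and at 274 and 691 CPM at dorsal closure, lower in both pairs and with no overlap between the stages. Its change on the log2 scale was -3.13 ± 1.04 (SE; adjusted p in edgeR 0.04, and 0.00012 with the replicate block). The call was close to the threshold: the adjusted p was 0.051 and 0.24 without syncytial blastoderm replicates 1 and 2, 0.15 and 0.077 without dorsal closure replicates 1 and 2, and 0.067 without gastrula replicate 2. Scaling by DESeq2's size factors or the upper quartile gave 0.094 and 0.079, the stricter filter 0.076, and the 4 libraries alone 0.07. Already at cellular blastoderm it was at 366 and 1380 CPM.

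MDOA013852 had the highest starting level among lost genes. It stood at 828 and 982 CPM at syncytial blastoderm and at 0.392 and 0.821 CPM at dorsal closure, on 33 and 34 counts. Both pairs showed a large difference, 2112-fold lower in replicate 1 and 1196-fold lower in replicate 2. Its change on the log2 scale was -10.56 ± 0.87 (SE; adjusted p in edgeR 0.00052), and it remained called under all 22 alternatives run for it, with adjusted p from 1.6e-53 to 0.0065. In between it stood at 495 and 485 CPM at cellular blastoderm, then 73.6 and 44.8 at gastrula, then 56.3 and 21.8 at germ band extension; the replicates were closest at cellular blastoderm.

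The largest shares among kept genes without a call belonged to MDOA001720 and MDOA015658. MDOA001720 took 0.68% and 1.3% of the syncytial blastoderm reads against 1.6% and 1.9% of the dorsal closure reads, a log2 difference of 1.18 ± 0.56 (SE; adjusted p in edgeR 0.12, and 0.012 with the replicate block). Without the block its adjusted p was 0.0082 in DESeq2's own test, and 0.043 in edgeR once size factors from DESeq2 replaced TMM. Its levels did not overlap between the stages, at 4991 and 10936 CPM against 15726 and 20258 CPM. MDOA015658 was the gene that took 4.2% of syncytial blastoderm replicate 1, at 30976 CPM against 4109 CPM in replicate 2. At dorsal closure it stood at 5413 and 1245 CPM, so the stages overlapped while each pair went down (a log2 difference of -2.40 ± 1.28, SE; adjusted p in edgeR 0.16, and 0.0032 with the replicate block). That difference was -0.28 without syncytial blastoderm replicate 1 and -3.84 without dorsal closure replicate 1. At all 5 stages it was higher in replicate 1 than in replicate 2.

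**Figure D5:**
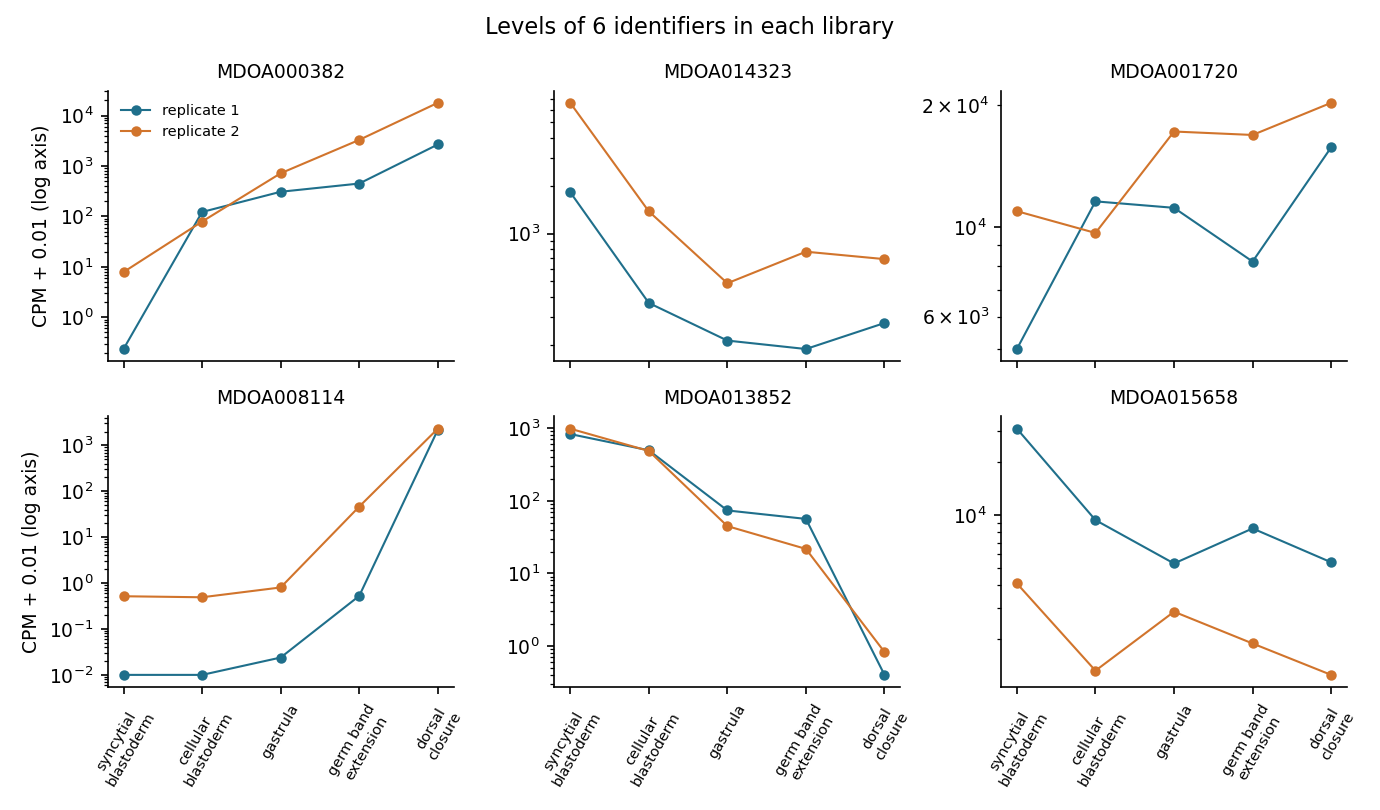
Level of 6 identifiers (CPM + 0.01, log axes that differ between panels) in each library, by stage, with replicate 1 in blue and replicate 2 in orange; each point is 1 library. The left column holds MDOA000382 and MDOA008114, which rose to between 2184 and 17847 CPM at dorsal closure, the middle column MDOA014323 and MDOA013852, which fell, and the right column MDOA001720 and MDOA015658, which were not called by edgeR with TMM and no replicate block.

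The replicates agreed better on what was kept than on what was lost. Of the 2947 genes gained by the replicate 1 libraries alone, 2234 (75.8%) were also gained in replicate 2, where a further 572 stayed below the floor at dorsal closure as at the start. Of the 2593 gained in replicate 2, the same 2234 make up 86.2%. The 163 lost genes are 49.5% of the 329 lost in replicate 1 and 34.4% of the 474 lost in replicate 2. The 6410 kept genes are 94.5% and 96.3% of those kept in replicates 1 and 2, and the 5392 absent genes 93.8% and 88.7% of those absent. Of all genes, the kept made up 40.6%, the absent 34.1%, the gained 14.1% and the lost 1.03%. A larger class agrees more often by number alone, and the part of class size in the agreement was not tested. Lost genes stood nearer the floor of 1 CPM than kept genes. Their medians at dorsal closure were 0.38 and 0.266 CPM, against 30.3 and 26.7 CPM for kept genes. The part of this in the agreement was not tested. Among genes absent at syncytial blastoderm, 572 reached the floor in dorsal closure replicate 1 only, at a median of 2.23 CPM, and 267 in replicate 2 only, at a median of 1.88 CPM. Among genes present at syncytial blastoderm, 242 stayed above the floor in dorsal closure replicate 1 only and 87 in replicate 2 only. In both cases more genes were present in dorsal closure replicate 1. That library also had more reads (81097276 against 44432718), but whether depth had a part in this was not tested.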

How the data were processed

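Raw counts per gene were deposited by the authors, with a separate file for each library. STAR and HTSeq are the tools listed in the submitters' processing notes, and no version, build, annotation or strand setting is stated in the sources used here. Per the labels' protocols, RNA was read as paired ends of 100 bp with inserts of 200 bp. Left out were 5 closing rows that name no gene; in the 4 libraries they hold reads outside genes (17.4% to 25%), reads with several alignments (5.31% to 10.7%) and ambiguous reads (0.424% to 0.661%). Counts of near-identical, overlapping or antisense genes may therefore be incomplete or shared. The reference gene table held 0 of the 15803 identifiers, so no gene list was tested and no sequence is shown.

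Genes were filtered with filterByExpr, scaled by TMM and fitted with edgeR 4.0.16 in R 4.3.3 (robust quasi-likelihood, 1 coefficient per stage, 5 residual degrees of freedom), after a trial on simulated data. Standard errors are the unshrunken change over the square root of F. Classes and shares were computed in Python 3.11.15. Same-stage libraries differed beyond sampling noise (chi-square per degree of freedom 593 and 1760). Replicate 2 minus replicate 1 differences correlated across genes in all 10 pairs of stages (r = 0.321 to 0.608, with 0.321 between syncytial blastoderm and dorsal closure). The numbers, which the labels do not explain, were therefore used to pair libraries when shares and plain CPM ratios were compared. The main test, and the split of kept genes by call, do not use them. Blocked values are given beside the calls of all tested, gained, lost and kept genes, and for identifiers whose call changed. The labels call the replicates biological without saying how they were collected, so p-values measure the spread between these libraries. Identifiers were named by a rule. Among called genes that moved the same way in all 4 cross-stage pairs, it took the largest rise and fall in share and the highest gained and lost gene, and beside these the 2 largest kept genes without a call. The classes, lists and tests were chosen with earlier results of these data known.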

Additional observations from a re-analysis of the deposited data

How the results depend on the processing

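Besides the values given with the results, rises ranged from 1095 to 3037 and falls from 763 to 1552 on leaving out each library in turn. Falls numbered 1059 with DESeq2's size factors, 909 with the 4 libraries alone, 3103 with the replicate block and 3806 when total counts were used beside that block; the cause was not tested, but a lone library in a stage is assumed to vary like the others. DESeq2 1.42.0, limma-voom (limma 3.58.1), the other filters and a minimum log2 fold change of 1 kept both counts within 1.5 times. Lost genes, near the floor by nature, numbered 252 and 466 with floors of 2 and 5 CPM, 53 with presence at 10 CPM and absence under 1 CPM, and 214 to 405 without single libraries. Their share at syncytial blastoderm was 0.268%, 1.36% and 3.19% with floors of 0.5, 2 and 5 CPM, 0.73% with the 10 CPM rule, 0.458% with DESeq2's size factors, and 0.765% to 1.56% without single libraries. Under the 10 CPM rule 960 genes were gained and 4165 kept. The kept genes took 85.3% of the reads at syncytial blastoderm and 78.7% at dorsal closure under that rule. At syncytial blastoderm their share was 98.7%, 96.5% and 91.9% with floors of 0.5, 2 and 5 CPM, 98.3% with DESeq2's size factors and 97.7% to 98.7% without single libraries. The gained share ranged from 11.1% to 17.4% and the read share in common from 49.1% to 53.6% over the alternatives run for them. These moves were smaller than the spread between libraries or pairs of libraries. With 2 libraries a stage, leaving out 1 could hardly move a mean by more than that spread, so those settings cannot decide how stable it is. The replicate block changed the call of MDOA001720 and MDOA015658 alone among the 6 identifiers. Levels below about 0.14 CPM rest on 3 or fewer counts in syncytial blastoderm replicate 1.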

Other observations

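The middle stages held 50% of their reads in as few genes as dorsal closure or nearly so. At cellular blastoderm 50% of the gene reads lay in 299 and 254 genes, at gastrula in 267 and 164 and at germ band extension in 311 and 150, against 614 and 493 at syncytial blastoderm. At all 5 stages the replicate 1 library needed more genes than the replicate 2 library.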
